A study of Mus musculus with 12 samples.

Results

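Liver identity transcription factors were represented by 8 genes of the hepatocyte lineage, Hnf4a, Foxa1, Foxa2, Foxa3, Cebpa, Cebpb, Onecut1 and Prox1, out of 21938 protein-coding genes of the GENCODE vM21 annotation (mm10). The genes were chosen by name, and each was read in a window made of its gene body and 50 kb on either side. The question was how much LSD1 and H3K4me2 these loci carry in mouse liver, and where the H3K4me2 peaks of LSD1-LKO liver differ from those of control liver.

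Hepatocyte identity is held by a small network of transcription factors that bind their own and each other's enhancers. The forkhead factors of the FOXA family open closed chromatin, the nuclear receptor HNF4A, the C/EBP leucine zipper proteins, the cut-homeodomain protein ONECUT1 (also called HNF6) and the prospero homeodomain protein PROX1 act on the sites so opened. H3K4me2 marks active and poised promoters and enhancers, and LSD1, the product of Kdm1a, is a flavin-dependent demethylase that removes methyl groups from H3K4.

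All mice were C57BL/6, and the material was whole liver. LSD1 was immunoprecipitated from wild-type liver. H3K4me2 was immunoprecipitated from the liver of LSD1 fl/fl mice that had received AAV8-TBG-GFP as adults (GFP control) or AAV8-TBG-Cre (LSD1-LKO), so both H3K4me2 groups carried the floxed allele and a viral vector. The TBG promoter is active in hepatocytes, and non-parenchymal liver cells of LSD1-LKO mice keep the gene. Each of the 3 lists came from 2 ChIP libraries, and nothing in the labels says that the libraries were separate animals. Peak calling used control libraries that the labels call input without antibody and the methods call IgG. The labels give neither the age nor the diet of the animals. The paper's methods describe a high-fat diet after injection for the LSD1 fl/fl mice and do not name the diet of the ChIP animals.

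The lists held 14584 LSD1 peaks, 43891 control H3K4me2 peaks and 50675 LSD1-LKO H3K4me2 peaks. Each entry pairs a peak from 1 library, here called first-listed, with the peak that overlaps it in the other, here called second-listed. The intervals of the first-listed libraries covered 7.19 Mb for LSD1, 38.9 Mb for control and 38.0 Mb for LSD1-LKO, and those of the second-listed libraries covered 9.06, 50.8 and 57.9 Mb. Values are given for both libraries wherever H3K4me2 was compared, since the second-listed LSD1-LKO library had the widest intervals. A locus with no listed peak may still have had a peak in 1 of the 2 libraries. Hepatocyte markers were marked at the promoter at 7 of 8 genes in the control list and 8 of 8 in the LSD1-LKO list. Over all protein-coding genes the shares were 59.6% and 59.8%. None of 6 Kupffer cell and macrophage markers had a promoter peak in either list. Other cell types had some, at 2 and 3 of 6 endothelial, 2 and 3 of 5 stellate cell and 3 and 2 of 5 cholangiocyte markers.

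The promoter sequences below are those on which the H3K4me2 comparison and the LSD1 peaks turn. Each is the 250 bases that precede a RefSeq start on the gene's own strand in GRCm38 (mm10), and capitals mark an exact match to the forkhead letters TGTTTAC or the ONECUT letters ATTGATT on either strand. Foxa3 (chr7:19023540-19023789, minus strand) and Cebpb (chr2:167688665-167688914, plus strand) are shown because they had an LSD1 peak, no control H3K4me2 peak and an LSD1-LKO H3K4me2 peak. The upstream start of Hnf4a (chr2:163506607-163506856, plus strand) is shown beside its downstream start (chr2:163546905-163547154, plus strand) because the first was unmarked and the second was marked. Foxa2 (chr2:148046970-148047219, minus strand) lies under the only LSD1 peak of its window, and Foxa1 (chr12:57546112-57546361, minus strand) holds a forkhead match.
Foxa3: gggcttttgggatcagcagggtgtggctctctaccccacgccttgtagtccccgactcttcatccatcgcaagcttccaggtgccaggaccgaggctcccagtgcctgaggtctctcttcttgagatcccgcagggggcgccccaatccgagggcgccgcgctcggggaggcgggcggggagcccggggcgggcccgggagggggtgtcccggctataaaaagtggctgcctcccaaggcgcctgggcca
Cebpb: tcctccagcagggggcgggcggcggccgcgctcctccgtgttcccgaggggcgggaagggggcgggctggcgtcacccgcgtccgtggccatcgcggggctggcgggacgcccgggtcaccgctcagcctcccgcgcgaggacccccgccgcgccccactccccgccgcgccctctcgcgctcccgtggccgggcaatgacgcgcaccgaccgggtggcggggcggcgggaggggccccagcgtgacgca
Hnf4a, upstream: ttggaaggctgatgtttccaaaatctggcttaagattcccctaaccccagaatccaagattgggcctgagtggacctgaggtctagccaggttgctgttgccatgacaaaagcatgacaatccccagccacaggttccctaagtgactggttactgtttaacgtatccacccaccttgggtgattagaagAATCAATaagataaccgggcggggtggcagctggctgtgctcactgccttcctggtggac
Hnf4a, downstream: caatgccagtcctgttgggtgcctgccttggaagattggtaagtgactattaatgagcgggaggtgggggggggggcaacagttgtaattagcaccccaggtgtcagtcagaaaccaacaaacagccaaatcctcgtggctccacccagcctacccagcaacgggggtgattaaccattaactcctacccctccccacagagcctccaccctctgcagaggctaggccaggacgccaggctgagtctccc
Foxa2: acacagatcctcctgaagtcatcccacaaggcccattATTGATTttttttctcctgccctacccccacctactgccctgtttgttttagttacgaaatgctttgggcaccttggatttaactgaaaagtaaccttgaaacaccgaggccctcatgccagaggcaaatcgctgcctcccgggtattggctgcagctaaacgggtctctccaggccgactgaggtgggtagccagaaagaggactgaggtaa
Foxa1: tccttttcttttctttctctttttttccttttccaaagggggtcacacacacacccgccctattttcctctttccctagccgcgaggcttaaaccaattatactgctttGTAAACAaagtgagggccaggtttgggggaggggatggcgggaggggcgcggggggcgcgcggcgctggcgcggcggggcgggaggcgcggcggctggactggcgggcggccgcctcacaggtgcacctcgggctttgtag

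The Cebpb stretch was the richest in G and C of these 6 at 81.6%, with 41 CpG dinucleotides, and the Foxa3 stretch held 68.8% and 18 CpG. The upstream Hnf4a stretch held 51.2% and 3 CpG. LSD1 intervals of the first-listed library covered all 250 bases at Foxa3, Cebpb and Foxa2 and none at either Hnf4a start or at Foxa1. LSD1-LKO H3K4me2 intervals covered 103 bases of the Foxa3 stretch in the first-listed library and all 250 in the second-listed library. They covered all 250 bases of the Cebpb stretch in both libraries. Control intervals covered 0 bases of either stretch in both libraries. The downstream Hnf4a stretch was covered over 183 and 226 bases in control and over 0 and 250 bases in LSD1-LKO.

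All 8 genes matched the RefSeq promoter table, with 12 promoters of 300 bases between them. A forkhead match stood in 1 of the 12, against 3.65% of 32817 promoters of the same length, and an ONECUT match in 2 of the 12, at Hnf4a upstream and Foxa2, against 2.86%. The HNF4 letters CAAAGTCCA, found in 0.475% of all promoters, and the C/EBP letters TTGCGCAA, which read the same on both strands and were found in 0.183%, were in none of the 12. No match overlapped another in these sequences. In windows of 300 bases on the centres of the 37 LSD1 peaks described next, 3 windows held the forkhead letters (8.11%, against 4.68% of 14584 LSD1 peaks) and 3 held the ONECUT letters (8.11%, against 4.89%). Neither the HNF4 nor the C/EBP letters were in those 37 windows, and they were in 1.17% and 0.254% of all LSD1 windows.

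H3K4me2 was dense at all 8 loci. In the first-listed control library, peaks covered between 7.73% of the window at Prox1 and 18% at Cebpa, with a median of 10.2%, where the median over all protein-coding genes was 2.80%. In LSD1-LKO liver the range was 7.94% at Onecut1 to 18.5% at Cebpa, with a median of 11.9% against 2.71% over all genes. Cebpa ranked above 99.1% of all genes in control and 99.4% in LSD1-LKO, Foxa2 above 97.1% and 94.8%, and the lowest of the 8, Prox1, above 82.6% in control. Windows of the 8 hepatocyte markers were dense as well. Their median was 9.54% in control, with a range of 4.77% to 22.3%, and 7.92% in LSD1-LKO, with a range of 3.8% to 15.8%. The plot of the percent of each window marked places the 8 genes on the distribution of all genes.

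**Figure D1:**
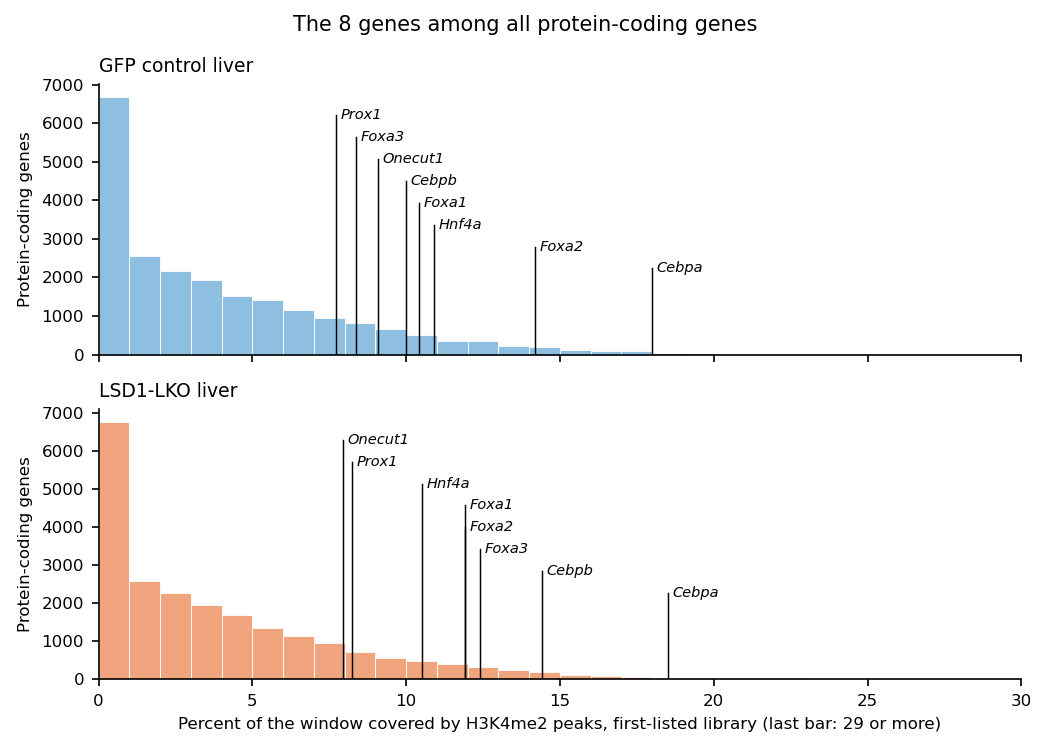
Bars count protein-coding genes by the percent of their window (gene body and 50 kb on either side) that H3K4me2 peaks of the first-listed library cover, in GFP control liver (top) and LSD1-LKO liver (bottom), and vertical lines place the 8 genes. All 8 lie between 7.73% and 18% in control and between 7.94% and 18.5% in LSD1-LKO, above the median gene in both.

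The windows were also read peak by peak, and the map of listed peaks around each gene shows where they sat.

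**Figure D2:**
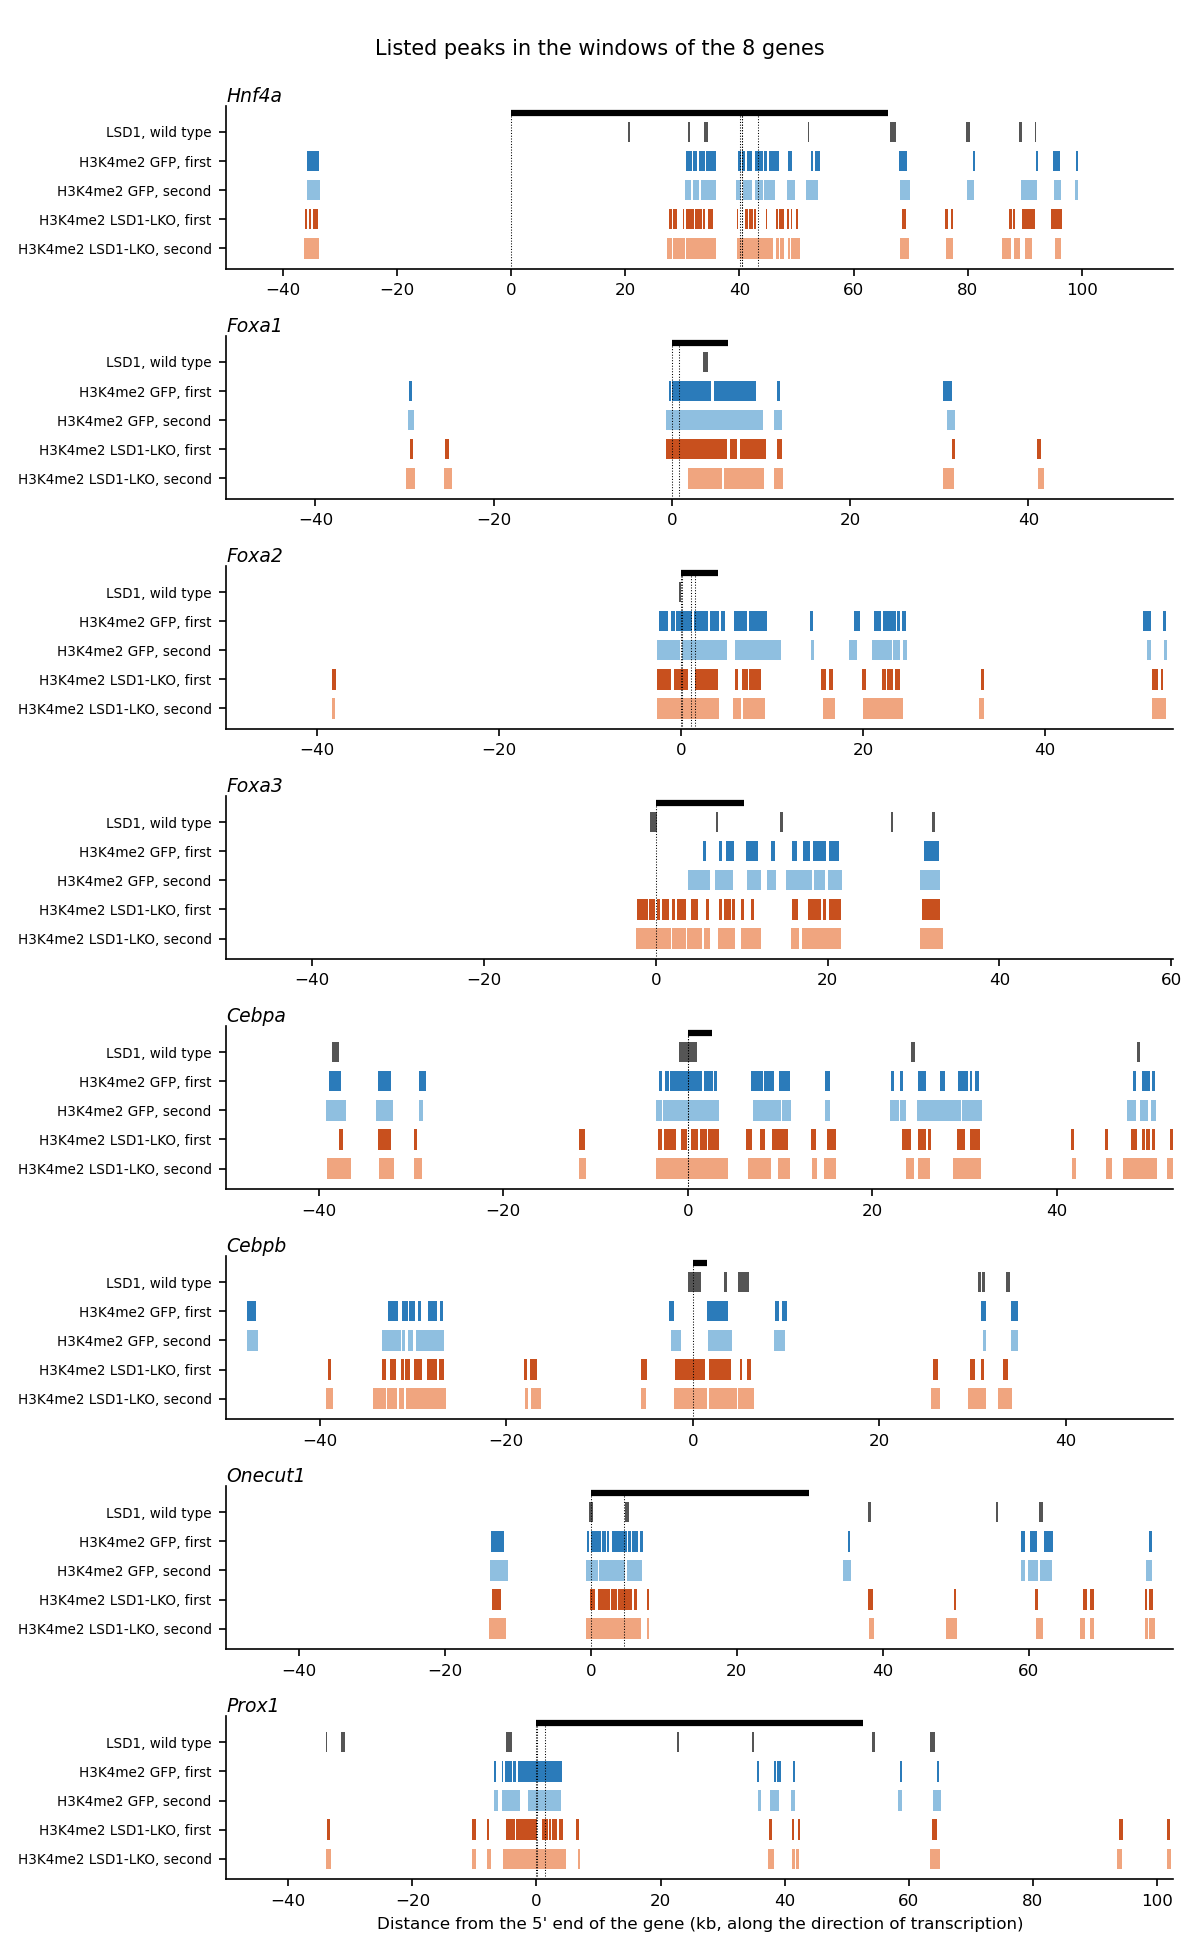
Each panel shows the window of 1 gene, with distance from its 5′ end in kb along the direction of transcription on the horizontal axis. The black bar is the gene body, dotted lines are annotated start sites, and blocks are peak intervals of LSD1 (first-listed library) and of H3K4me2 in both GFP control and both LSD1-LKO libraries. Among the H3K4me2 rows, blocks lie within 1 kb of the start of Foxa3 and Cebpb in LSD1-LKO only, and the upstream start of Hnf4a has none. The nearest first-listed LSD1-LKO block lies 149 bp from the Foxa3 start.

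Hnf4a (chr2:163506808-163572910, plus strand) encodes the nuclear receptor at the centre of the hepatocyte network and has an upstream promoter and a downstream promoter about 40.4 kb apart. Its window held 8 LSD1 peaks, more than the windows of 99.2% of protein-coding genes. None touched a promoter of Hnf4a. The peaks at 20.7, 31.2, 34.1 and 52.1 kb from the 5′ end were intronic, the one at 34.1 kb also within 1 kb of the start of the antisense gene Hnf4aos, and those at 66.9, 80.1, 89.3 and 91.9 kb lay beyond the gene. The peak at 80.1 kb had the highest rank by p-value among the 37, above 94.9% of all LSD1 peaks, and fold enrichments over the control library of 4.24 in the first-listed and 5.61 in the second-listed library.

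H3K4me2 at Hnf4a followed the downstream promoter. In control liver 8 peaks formed a cluster from 39.7 to 49.2 kb that covered it, and in LSD1-LKO liver 10 peaks formed a cluster from 39.5 to 50.3 kb. The nearest H3K4me2 peak to the upstream start lay 30649 and 30504 bp away in the 2 control libraries and 27694 and 27320 bp away in the 2 LSD1-LKO libraries. A further cluster, over the start of the antisense transcript Hnf4aos, spanned 30.6 to 35.9 kb in control with 4 peaks and 27.7 to 35.4 kb in LSD1-LKO with 7 peaks, and 2 LSD1 peaks fell inside it in each list. The marked length of the whole window was 18092 and 23984 bp in control and 17478 and 28175 bp in LSD1-LKO, and the libraries of both groups overlapped. Clusters on the neighbouring gene Ttpal, at the far end of the window, were present in both lists. The promoters of Fitm2 and 2310001K24Rik were marked in both lists as well, by 1 control peak of 2175 bp and by LSD1-LKO peaks of 395 and 800 bp. With a peak of 277 bp in an intron of Fitm2, these LSD1-LKO peaks met the cluster rule. The 3 marked 1472 bp between -36.1 and -34.0 kb, and all were paired with a single peak of 2680 bp in the second-listed library.

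The forkhead genes differed from each other in LSD1. Foxa1 (chr12:57540628-57546916, minus strand) and Foxa2 (chr2:148042877-148046969, minus strand), the pioneer factors of liver specification, had 1 LSD1 peak each in their windows, and Foxa3 (chr7:19013284-19023538, minus strand), a forkhead gene of adult liver, had 5. The Foxa1 peak lay in an exon 3.78 kb from the 5′ end, with fold enrichments of 2.75 and 4.04. The Foxa2 peak lay on the promoter at -0.119 kb, with fold enrichments of 2.50 and 3.46, and was 294 and 368 bp wide. The strongest Foxa3 peak by rank lay at the promoter, 818 and 447 bp wide, with fold enrichments of 4.92 and 3.30, above 85.4% of all LSD1 peaks.

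At Foxa1 and Foxa2 the promoter was marked in both lists. A cluster of 4 peaks ran from -0.3 to 12.2 kb at Foxa1 in control and another of 4 peaks from -0.6 to 12.4 kb in LSD1-LKO, past the end of the gene in both. Around its downstream start, 0.8 kb from the 5′ end, the 2 LSD1-LKO libraries differed, with all 2001 bp covered in the first-listed and 9 bp in the second-listed. Around its 5′ end they covered 1613 and 0 bp, and the control libraries 1228 and 1664 bp, so the second-listed LSD1-LKO library lay below both. A cluster at Foxa2, which also held the start of the long non-coding RNA 9030622O22Rik, ran from -2.4 to 9.5 kb with 8 peaks in control and from -2.6 to 8.8 kb with 6 peaks in LSD1-LKO. The Foxa1 window was marked over 11086 and 13395 bp in control and 12626 and 13176 bp in LSD1-LKO, and the Foxa2 window over 14742 and 18033 bp and over 12401 and 18110 bp. Libraries of the 2 groups overlapped at both genes.

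At Foxa3 the start site itself had no control peak. The nearest control H3K4me2 peak lay 5500 bp away in the first-listed library and 3736 bp away in the second-listed library, within the gene. In LSD1-LKO liver 1329 and 2001 bp of the 2001 bp around the start were covered. The LSD1-LKO promoter peaks ranked above 65.8% to 81.6% of that list. A control cluster of 9 peaks ran from 5.5 to 21.3 kb, over the 3′ part of the gene and the start of Irf2bp1, and in LSD1-LKO 13 peaks ran from -2.1 to 11.4 kb, followed by a separate cluster of 4 peaks from 15.9 to 21.6 kb. The start of Sympk, which encodes an mRNA processing scaffold and is transcribed in the opposite direction, lies 839 bp from that of Foxa3, so these peaks cannot be given to a single gene, and Sympk too had an LSD1 promoter peak and an H3K4me2 promoter peak in the LSD1-LKO list only. A further LSD1 peak at 32.3 kb lay on the promoter of Mypop, near the antisense gene Mypopos, both marked in each list. The marked length of the window was 9220 and 15856 bp in control and 13669 and 20390 bp in LSD1-LKO, a ratio of 1.48 between first-listed and 1.29 between second-listed libraries. The lower LSD1-LKO library lay below the upper control library.

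Cebpa (chr7:35119293-35121928, plus strand), which encodes the C/EBP protein of differentiated, non-dividing hepatocytes, was the most heavily marked of the 8. Control peaks covered 18464 and 26526 bp of its window and LSD1-LKO peaks 18971 and 29986 bp, with overlap between the groups. It had 4 control clusters and 3 in LSD1-LKO, where the cluster on the promoter was the longest in either list of windows at 19.2 kb, from -3.2 to 16.1 kb. The same promoter lay in a cluster of 6.30 kb in control, with a separate cluster of 4.15 kb between 6.9 and 11.1 kb. The antisense gene Gm45091 starts 312 bp from Cebpa and shared these peaks. A control cluster from 22.0 to 31.5 kb held the start of the long non-coding RNA Gm35665, whose promoter was marked in the control list only, and the LSD1-LKO cluster there began at 23.2 kb. Cebpa had 4 LSD1 peaks, and the one on its promoter was the widest of the 37 in the first-listed library, at 1913 bp, with fold enrichments of 3.67 and 3.77.

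Cebpb (chr2:167688915-167690418, plus strand), which encodes the C/EBP protein of the acute-phase and regenerative response, had 6 LSD1 peaks. The promoter peak was 1376 and 1172 bp wide with fold enrichments of 3.41 and 4.31 and ranked above 89.7% of all LSD1 peaks, and another at 5.44 kb, with fold enrichments of 4.26 and 4.31, ranked above 93.5%. The pair at 30.7 and 31.2 kb shared a single peak of 1981 bp in the second-listed library.

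Control H3K4me2 stopped short of the Cebpb start on both sides. The nearest control peak was 1524 bp away in the first-listed library and 1277 bp away in the second-listed library, whereas both LSD1-LKO libraries covered all 2001 bp around the start. The LSD1-LKO peak on the start was 3247 and 3571 bp wide, with fold enrichments of 5.17 and 7.97, and ranked above 93.2% of its list. It belonged to a cluster of 4 peaks from -1.9 to 6.3 kb that held 3 LSD1 peaks. The starts of Tmem189 and of the long non-coding RNA A530013C23Rik lay in it, and both had an H3K4me2 promoter peak in each list. The 5′ end of Tmem189 lies 907 bp from that of Cebpb. Tmem189 too had an LSD1 promoter peak, so the peaks on the Cebpb start cannot be given to a single gene. A distal cluster from -32.7 to -26.8 kb, on the starts of Gm20431 and Gm14320, was present in both lists, from -33.3 to -26.7 kb in LSD1-LKO. The window was marked over 10186 and 13038 bp in control and 14582 and 22775 bp in LSD1-LKO, so both LSD1-LKO libraries lay above both control libraries.

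Onecut1 (chr9:74861921-74891781, plus strand) had 5 LSD1 peaks, of which 2 lay in its promoters. The peak at -0.0105 kb covered the 5′ start, and that at 4.91 kb lay 60 bp from the downstream start in the first-listed library and 44 bp from it in the second-listed library. Their fold enrichments were 2.71 and 2.42 at the first and 4.01 and 3.23 at the second. The 5′ cluster of H3K4me2 peaks ran from -0.6 to 7.1 kb in control and from -0.1 to 7.9 kb in LSD1-LKO and held both LSD1 peaks. A cluster of 3 control peaks marked 2874 bp between 58.9 and 63.4 kb, where the LSD1-LKO list had a single peak of 484 bp. Marked length was 11795 and 15409 bp in control and 10311 and 16011 bp in LSD1-LKO, with overlap.

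Prox1 (chr1:190118035-190170714, minus strand) is needed for hepatocyte migration in the embryo and is also expressed in lymphatic endothelium. It had 7 LSD1 peaks, none of them at a start site. The nearest to the 5′ end lay at -4.35 kb with fold enrichments of 4.12 and 4.99, inside the promoter cluster of both lists. That cluster ran from -6.9 to 4.2 kb with 5 peaks in control and from -10.4 to 6.9 kb with 11 peaks in LSD1-LKO. Its marked length was 9561 bp in control, where 1 peak spanned 7208 bp, and 8962 bp in LSD1-LKO. Most of the 11 LSD1-LKO peaks were paired with a single peak of 10209 bp in the second-listed library. The starts of Gm28172 and Prox1os, both antisense, lay in the same cluster. The intronic LSD1 peaks at 22.8 and 34.9 kb held a forkhead match each and overlapped no H3K4me2 peak. Marked length was 11795 and 13203 bp in control and 12562 and 17540 bp in LSD1-LKO, with overlap.

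LSD1 peaks were found in all 8 windows, 37 in all, where 66.1% of protein-coding genes had at least 1. The number per 100 kb had a median of 4.22 over the 8 genes and 0.861 over all genes. The number per window had a median of 5 over the 8 genes and 1 over all genes. It was 3.5 over the hepatocyte markers and 3 over 16 other liver lineage factors. A promoter peak, within 1 kb of an annotated start, was present at Foxa2, Foxa3, Cebpa, Cebpb and Onecut1, 5 of 8, where 24.6% of all genes had one. The 37 peaks were of middling strength, with a median percentile of 55.9 by p-value and a range of 2.16 to 94.9. Fold enrichment ran from 1.67 to 6.45 with a median of 3.0 in the first-listed library, and from 2.16 to 5.61 with a median of 3.23 in the second. In both libraries, 6 of the 37 had a p-value of 1e-05 or less, among them promoter peaks of 2 genes. Peaks away from the promoters of protein-coding genes made up 30 of the 37, or 81.1% (Wilson 95% interval 65.8% to 90.5%, counting error only), against 62.7% of all LSD1 peaks.

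The comparison of promoters asked whether any start of a gene had a peak within 1 kb. In control liver 6 of 8 genes had an H3K4me2 promoter peak, where 59.6% of all genes had one, and in LSD1-LKO liver 8 of 8 had one, where 59.8% did, Foxa1 by 9 bp in the second-listed library. Foxa3 and Cebpb had it in the LSD1-LKO list only, 2 of 8 against 3.17% of all genes, and none of the 8 had it in the control list only, against 3.03%. Both also had an LSD1 promoter peak in wild-type liver. This combination, singled out after the values were seen, held for 97 protein-coding genes, or 0.442%. Both genes kept this pattern with the intervals of the second-listed libraries, with the 5′ end as the only start and with q at or below 0.05. With p-values of 1e-05 or less the Foxa3 promoter lost its LSD1 peak and kept the H3K4me2 difference. With a promoter of 2 kb the Cebpb promoter was marked in control as well. Within 1 kb of the 5′ end, first-listed cover was lower in LSD1-LKO at Foxa2 (1512 against 1863 bp) and Cebpa (1342 against 2001). It was also lower at Onecut1 (652 against 1327) and Prox1 (1203 against 2001). It was higher at Foxa1, Foxa3 and Cebpb, and 0 in both lists at Hnf4a. Second-listed cover there was lower in LSD1-LKO at Foxa1 only. The plot of peaks near start sites shows Foxa3 and Cebpb beside promoters that were marked in both lists.

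**Figure D3:**
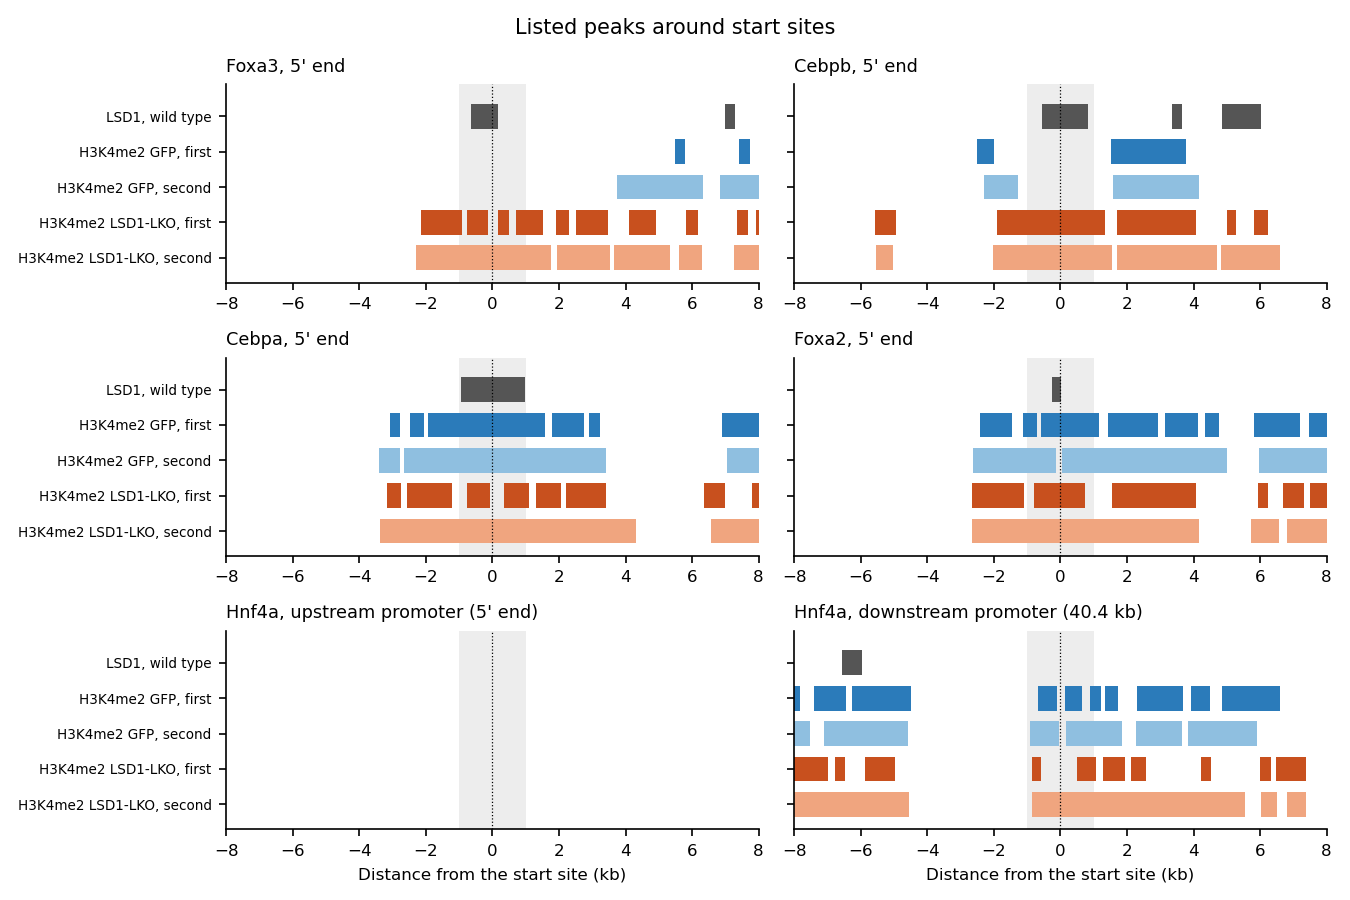
Peak intervals within 8 kb of a start site, with distance in kb along the direction of transcription and the promoter of 1 kb on either side shaded. Rows are LSD1 in wild-type liver and both H3K4me2 libraries of GFP control and of LSD1-LKO liver. The shaded part is empty in both control rows at Foxa3 and Cebpb and holds peaks in the LSD1-LKO rows, Cebpa and Foxa2 have peaks there in all rows, and the upstream Hnf4a promoter is empty in all rows.

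Marked length of the windows was compared over 4 libraries, 2 against 2, for which a two-sided exact permutation test cannot give a p below 0.333, so no window could pass a threshold of 0.05. Both LSD1-LKO libraries lay above both control libraries at 1 of 8 genes, Cebpb, where 13.4% of the 16653 genes with at least 1000 bp marked did so, and lay below at none, against 9%. No window was longer in LSD1-LKO by at least 1.5-fold, against 8.36% of these genes, and none was shorter by 1.5-fold, against 11.2%. Foxa3 at 1.48 and Cebpb at 1.43 were the nearest to that limit in the first-listed libraries, and Cebpb reached 1.75 in the second-listed libraries. Counts this close to the background do not set the 8 genes apart in marked length. The Cebpb window no longer separated the groups with windows of 100 kb or when peaks near starts of other protein-coding genes were left out, among them those shared with the Tmem189 start.

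**Figure D4:**
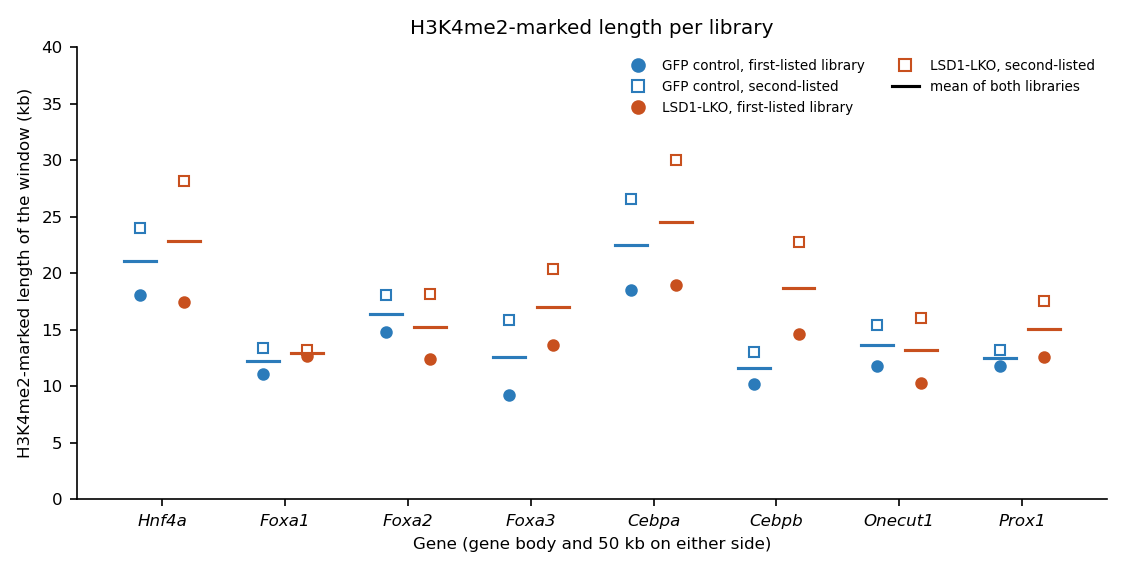
H3K4me2-marked length of each window in kb for the 2 GFP control libraries (blue) and the 2 LSD1-LKO libraries (orange), with filled circles for first-listed libraries, open squares for second-listed libraries and horizontal lines for the mean of both. Only at Cebpb do both LSD1-LKO points, 14582 and 22775 bp, lie above both control points, 10186 and 13038 bp.

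Summed over the 8 windows, 105380 and 139444 bp were marked in control and 112600 and 166163 bp in LSD1-LKO, a ratio of 1.07 between first-listed and 1.19 between second-listed libraries. The spread between the 2 libraries of a group was larger than the difference between groups. The median ratio over the 8 genes was 1.05 and 1.15, beside 0.953 and 1.10 over the 16653 genes. The first-listed libraries gave 5 windows longer and 3 shorter in LSD1-LKO, where 42.6% of genes were longer, and the second-listed libraries gave 7 longer and 1 shorter, where 67.1% were longer. The windows held 112 peaks in the control list and 147 in the LSD1-LKO list, with more in LSD1-LKO at 6 genes and the same number at Foxa2 and Onecut1, where 54.3% of the 16653 genes had more. Control peaks of the windows had a median width of 651.5 bp and LSD1-LKO peaks of 563 bp, beside 648 and 565 bp over the whole lists.

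Clusters of at least 3 H3K4me2 peaks with gaps of at most 3 kb were present in all 8 windows of both lists, where 36.7% of all genes had one in control and 41.3% in LSD1-LKO. All 8 hepatocyte markers had one in both lists as well, as did the other liver lineage factors except Hnf4g, Tbx3, Cebpd and Onecut3. The windows of the 8 liver identity genes held 16 clusters in control and 17 in LSD1-LKO. Their median span was 6.86 and 8.16 kb, against 4.95 and 4.59 kb over the 4010 and 4980 clusters of the whole lists. They held 75.9% of the control peaks and 73.5% of the LSD1-LKO peaks of the windows, against 36.8% and 41.2% genome-wide. A cluster lay on a start of the gene at 6 of 8 genes in control, all but Foxa3 and Cebpb, and at 8 of 8 in LSD1-LKO, where 14.6% and 17.2% of all genes had one. At least 1 LSD1 peak fell inside 11 of the 16 control and 12 of the 17 LSD1-LKO clusters, or 68.8% (Wilson interval 44.4% to 85.8%) and 70.6% (46.9% to 86.7%), against 53.1% and 52.7% of all clusters. Because wide peaks of the second-listed libraries were often paired with several narrow first-listed peaks, counts depend on which intervals are used, and the second-listed intervals gave 12 clusters in each list.

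How many LSD1 peaks of these windows lay on H3K4me2 depended on the library. With first-listed intervals, of the 37 LSD1 peaks 14 overlapped a control H3K4me2 peak (37.8%, Wilson interval 24.1% to 53.9%) and 20 an LSD1-LKO peak (54.1%, 38.4% to 69.0%), against 52.5% and 53.8% of all LSD1 peaks. Overlap in both lists was found for 12, in control only for 2, in LSD1-LKO only for 8 and in neither list for 15. The LSD1-LKO-only share was 21.6% (11.4% to 37.2%), against 9.38% of all LSD1 peaks. These 8 peaks were the promoter peaks of Foxa3 and Cebpb, those at 5.44 and 33.8 kb of Cebpb, and those at 24.4 kb of Cebpa, 38.2 kb of Onecut1, and 63.8 and -33.8 kb of Prox1.

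With second-listed intervals 22 of 37 LSD1 peaks overlapped control H3K4me2 (59.5%, against 56.8% of all) and 25 overlapped LSD1-LKO H3K4me2 (67.6%, against 60.3%), and the LSD1-LKO-only peaks numbered 6 (16.2%, against 8.82%). Those at 63.8 kb of Prox1 and 33.8 kb of Cebpb overlapped both lists under this choice. The promoter peaks of Foxa3 and Cebpb overlapped LSD1-LKO only under either choice. The LSD1 peaks at the promoters of Foxa2, Cebpa and Onecut1 overlapped H3K4me2 in both lists under both.

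**Figure D5:**
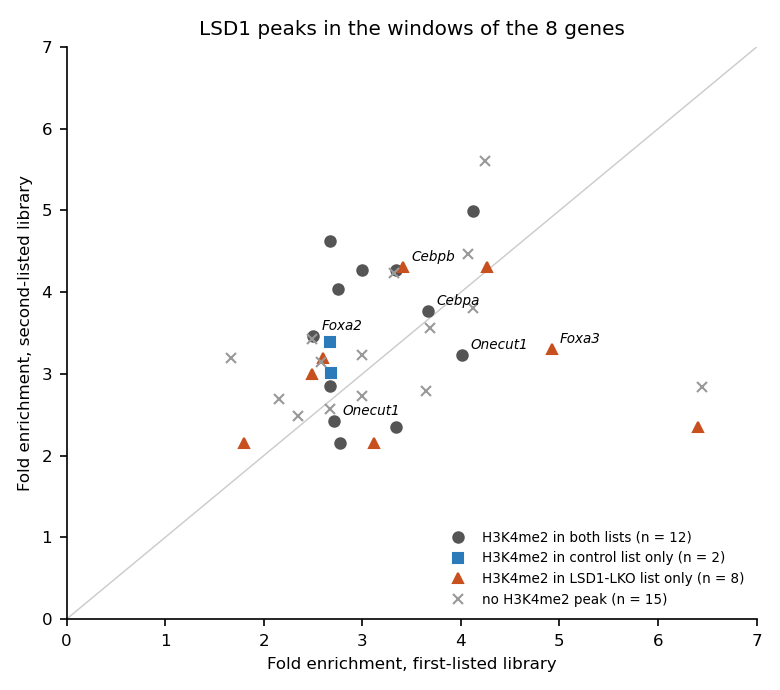
Fold enrichment of the 37 LSD1 peaks in the first-listed (horizontal) and second-listed (vertical) library of wild-type liver, with symbols for overlap with first-listed H3K4me2 intervals and a grey line of equal values. Promoter peaks carry the gene name, and those of Foxa3 and Cebpb are 2 of the 8 triangles that overlap H3K4me2 in the LSD1-LKO list only.

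Of the 112 control H3K4me2 peaks in the windows, 78 overlapped an LSD1-LKO peak (69.6%, Wilson interval 60.6% to 77.4%), against 68.1% of all control peaks. In the other direction, a control peak overlapped 87 of the 147 LSD1-LKO peaks (59.2%, 51.1% to 66.8%), against 64.1%. The second-listed intervals raised the control share to 84.8%. LSD1 peaks overlapped 14.3% of the control and 15.6% of the LSD1-LKO peaks of the windows, against 19% and 17.5% of all.

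Other liver lineage factors were read the same way. Of 16 genes, 16 had an H3K4me2 promoter peak in control and 15 in LSD1-LKO, where Onecut3 had none, and 8 had an LSD1 promoter peak. None of the 16 had it in the LSD1-LKO list only, and no window separated the groups in either direction. Their windows were marked over a median of 8.98% in control and 9.43% in LSD1-LKO. The longest marked windows in the first-listed control library were those of Rxra, the shared partner of many nuclear receptors, at 30510 and 44932 bp, Gata4, a zinc finger factor of foregut endoderm, at 22658 and 29901 bp, and Klf15, a regulator of fasting metabolism, at 19787 and 26192 bp. In the second-listed control library Nr5a2, a nuclear receptor gene, exceeded Klf15 with 27564 bp, against 17729 bp in the first-listed. The shortest were those of Hnf4g at 777 and 912 bp, Tbx3 at 3209 and 5004 bp and Cebpd at 5621 and 5447 bp. In LSD1-LKO, Rxra had 36844 and 51253 bp and Hnf4g 804 and 1513 bp.

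Of 10 lineage factors of other tissues, 3 had a promoter peak in control and 4 in LSD1-LKO, none had an LSD1 promoter peak, and the median percent of the window marked was 0.556% and 0.261%. Kdm1a, the targeted gene, had an H3K4me2 promoter peak in the LSD1-LKO list only, and 692 and 1689 bp of its window were marked in control and 1348 and 4279 bp in LSD1-LKO. Peak lists cannot show the deletion itself.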

How the data were processed

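ChIP-seq was made from mouse liver, with 2 ChIP libraries each for LSD1 in wild type, H3K4me2 in GFP control and H3K4me2 in LSD1-LKO, and as many control libraries, 12 samples in all. The authors aligned reads to mm10 with Bowtie 2, called peaks per library with MACS and joined both libraries of a group with BEDtools (version 2.25.0 in the submitters' processing notes), without pooling. Each deposited entry holds a peak pair with its fold enrichment, a ratio over the control library, its −log10 p-value and −log10 q-value, and a score that was not used. The deposited coordinates and the overlap in bp are positions and lengths. Listed p-values reach 0.05, and 16.8% of LSD1, 5.96% of control and 7.22% of LSD1-LKO entries exceed the 0.01 of the methods in a library. The lists hold no reads, so depth is unknown.

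Windows, promoters, marked length (bases covered by peaks), clusters and overlaps of at least 1 bp were computed with Python 3.11.15, pandas 2.3.3 and scipy 1.17.1 and tested on simulated data. Sequences came from RefSeq for GRCm38.p6, read with pysam 0.24.0. Starts of all transcript types were used. No test over many genes was run. Members and lists were chosen with earlier results of these data known. Genes named were the 8, other genes starting within 1 kb of an LSD1 peak or inside a cluster of their windows, Kdm1a, and the 3 longest and 3 shortest marked of the other liver lineage factors in the first-listed control library. Onecut3, Nr5a2, Cps1 and Alb were named after their values were seen. Windows, thresholds, intervals, promoter width, cluster gap and overlap rule were varied.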

Additional observations from a re-analysis of the deposited data

How the results depend on the processing

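The number of LSD1 peaks in the 8 windows was 37, 21 with windows of 10 kb, 57 with 100 kb, 6 with p at or below 1e-05 in both libraries and 9 with q at or below 0.05. The first of these thresholds left LSD1 promoter peaks at 2 genes. Clusters numbered 4 and 4 in control and LSD1-LKO with that p, and 8 and 10 with that q. Windows in which both LSD1-LKO libraries lay above both control libraries numbered 1, but 0 with windows of 100 kb, 0 without peaks near other genes' starts, and 2 with either threshold. Windows longer in LSD1-LKO by 1.5-fold numbered 0, but 2 with windows of 10 kb, with either threshold and with the shared part of both libraries, and 1 with their union. Windows shorter by 1.5-fold numbered 0, but 2 with that p. The share of LSD1 peaks on control H3K4me2 was 37.8%, and 54.1% on the LSD1-LKO list. The share of control peaks found in LSD1-LKO was 69.6%, and 57.1% with that p. Leaving out the first-listed libraries gave 1 longer window and shares of 59.5% and 84.8%. The summed change was 7220 bp and ranged from -5275 bp, with that p, to 26719 bp, with second-listed intervals. Foxa3 and Cebpb stayed longer in LSD1-LKO under all 8 alternatives run per gene, and the other 6 genes changed sign in at least 1. Without peaks near other genes' starts the gain fell from 4449 to 1256 bp at Foxa3 and from 4396 to 727 bp at Cebpb. Both first-listed gains were smaller than the larger within-group standard deviation of the libraries, 4752.5 bp at Foxa3 and 5793.3 bp at Cebpb. Starts of protein-coding transcripts only, added after the data were seen, gave the same promoter counts of 5, 6 and 8. The cause of these shifts was not tested.

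No paired analysis was possible because the columns of the lists carry no replicate numbers. Lists hold peaks found in both libraries, so absence from a list is no measurement of absence, depth is unknown, and fold enrichments were not compared between lists.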

Other observations

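Cps1, named after its values were seen, was the hepatocyte marker with an H3K4me2 promoter peak in LSD1-LKO only. Of other liver cell types, endothelial markers had a promoter peak at 2 of 6 genes in control and 3 of 6 in LSD1-LKO. Stellate cell markers had one at 2 and 3 of 5 and cholangiocyte markers at 3 and 2 of 5, against 59.6% and 59.8% of all genes. The Alb window was singled out after its values were seen. It was marked over 16070 and 17419 bp in control and 11150 and 15641 bp in LSD1-LKO. Among the 8 hepatocyte markers, both LSD1-LKO libraries lay below both control libraries at Alb only, and above at none. Of the 16653 genes, 9% lay below and 13.4% above. First-listed ratios were 1.18 at Ass1 and 1.35 at Serpina1c, and the other hepatocyte windows were shorter in LSD1-LKO. Windows above and below numbered 1 and 1 for endothelial and 2 and 1 for stellate cell markers. They numbered 2 and 0 for cholangiocyte and 0 and 0 for Kupffer cell and macrophage markers.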
